A study of Mus musculus with 8 samples.

Results

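The protein 4.1 family was examined as 7 genes, Epb41, Epb41l1, Epb41l2, Epb41l3, Epb41l4a, Epb41l4b and Epb41l5, out of 39017 genes in the count table. All 7 were among the 19494 genes with enough counts to be tested. They were taken by symbol, and the family was chosen by a measured value of the same comparison that is described here: Epb41l4a was lower and Epb41l4b higher in mutant libraries. Differences between the groups are therefore given for the 7 genes as a description, without a test. The cells were fluorescent cells sorted from hand-dissected cochlear nuclei, the first auditory relay of the hindbrain, of C57BL/6 mouse embryos at E18.5. Both groups carried Math1::Cre, a Cre recombinase driven by the promoter of the rhombic lip factor Atoh1, and the Rosa tdTomato reporter. The 4 wild type samples carried nothing else. The 4 mutant samples carried in addition conditional (floxed) alleles that the titles write as Hoxa2+/fl and Hoxb2fl/fl, whereas the series' design text gives both genes as fl/fl. Each sample pooled 3 littermates and came from its own mother. Libraries are named by the number in their column heading, wild type 5 to 8 and mutant 1 to 4.

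Protein 4.1 genes encode adaptors between the plasma membrane and the cytoskeleton beneath it. They share a FERM domain, a fold that binds the cytoplasmic tails of membrane proteins. The founding member Epb41, known as 4.1R, was found in the red cell, where it stabilises the contact of spectrin with actin and ties that lattice to glycophorin C. Epb41l1 (4.1N), Epb41l2 (4.1G) and Epb41l3 (4.1B) have the same plan with a spectrin-actin binding region and are present in neurons and glia, where they hold receptors, channels and adhesion molecules in place. Epb41l5 (Lulu1, or YMO1) and Epb41l4b (Lulu2, or EHM2) are known for work at cell junctions, Epb41l5 as a partner of the Crumbs polarity complex. Epb41l4a is also known as NBL4.

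The stretch of coding sequence that the printed genes have most in common is shown to make the relations within the family visible, since the counts rest on telling these genes apart. Coding sequences were read from GENCODE release M21 (build mm10) and aligned by codon. The lines give the 60 aligned bases of highest identity, each 5′ to 3′ on the coding strand, in lower case where a base equals that of Epb41 and in capitals where it differs. Each stretch crosses 1 exon junction, between exons 9 and 10 of the chosen Epb41 transcript (chr4:131978960-131982509, minus strand, intron included) and between exons 8 and 9 of that of Epb41l4b (chr4:57077000-57077220, minus strand).
Epb41: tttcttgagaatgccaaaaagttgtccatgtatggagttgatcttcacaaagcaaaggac
Epb41l1: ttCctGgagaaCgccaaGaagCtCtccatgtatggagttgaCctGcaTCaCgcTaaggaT
Epb41l2: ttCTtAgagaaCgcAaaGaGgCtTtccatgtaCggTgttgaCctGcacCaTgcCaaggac
Epb41l3: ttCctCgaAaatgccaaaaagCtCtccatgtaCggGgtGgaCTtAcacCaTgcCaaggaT
Epb41l4b: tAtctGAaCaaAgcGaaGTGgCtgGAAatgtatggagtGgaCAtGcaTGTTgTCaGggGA
Epb41l5: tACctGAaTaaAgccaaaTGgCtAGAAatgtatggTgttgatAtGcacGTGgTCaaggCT

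Counted in capitals, the bases that differ from Epb41 were 13 in Epb41l1, 16 in Epb41l2 and 15 in Epb41l3, against 26 in Epb41l4b and 23 in Epb41l5. Epb41l4b and Epb41l5 differed from each other at 13 of the 60 positions. Epb41l4a, whose sequence is not shown, differed from Epb41 at 27 and from Epb41l4b at 20. Over the 1227 coding bases that align in all 7 genes, identity ran from 64.0% to 67.2% among Epb41, Epb41l1, Epb41l2 and Epb41l3, and was 63.2% between Epb41l4b and Epb41l5. Epb41l4a had at most 48.6% identity with any other member, the value with Epb41l4b, and 48.2% with Epb41l5. No word of 50 bases was shared between the annotated transcripts of any 2 members. The longest identical run between chosen coding sequences was 28 bases, in Epb41 and Epb41l2, and that of Epb41l4a and Epb41l4b was 12. At most 0.944% of a member's words of 50 bases, the value for Epb41l4b, occurred in transcripts of another gene.

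**Figure D1:**
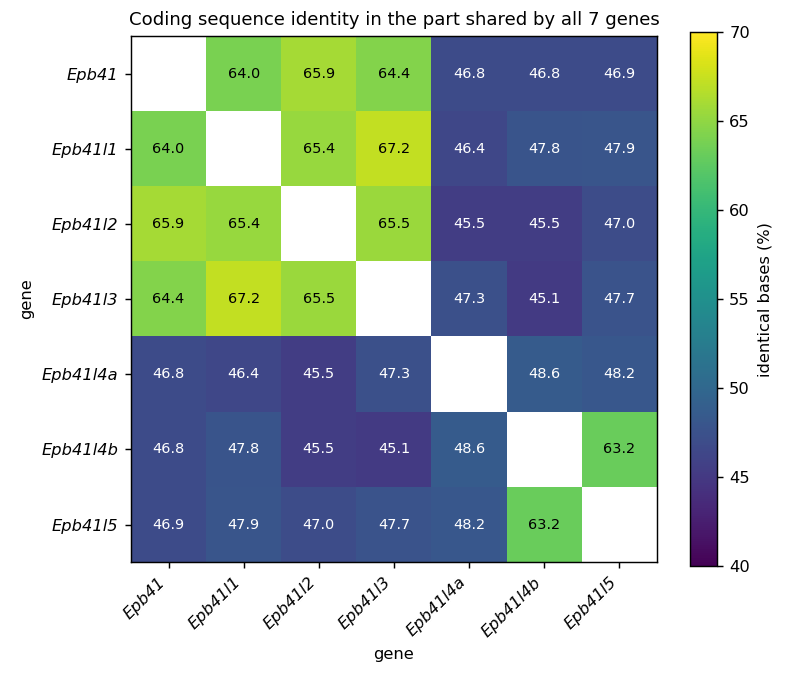
Percentage of identical bases between each pair of genes over the 1227 coding bases that align in all 7; rows and columns are genes and the colour scale runs from 40% to 70%. Epb41, Epb41l1, Epb41l2 and Epb41l3 form 1 block above 60%, Epb41l4b pairs with Epb41l5 at 63.2%, and Epb41l4a stays at or below 48.6% with each of the others.

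Total counts per library ran from 24789043 to 51118195, and the 7 genes had between 579 and 12516 counts per library, for which counting error alone is 4.16% and 0.894% of the value. The variation between libraries was larger, with a biological coefficient of variation of 23.2% over all genes. As a check of the labels, Hoxb2 was lower in each mutant library (5.02 ± 1.49 against 40.1 ± 4.41 CPM, SD, n = 4). Hoxa2 was at 26.7 ± 15.7 against 43.2 ± 10.99 CPM (SD, n = 4) and did not pass (edgeR adjusted p = 0.506). The 5 pan-neuronal markers summed to between 2480 and 3810 CPM and the 7 markers of rhombic lip and cochlear nucleus excitatory neurons to between 1730 and 2840 CPM. That second sum was 2340 to 2840 CPM for wild type against 1730 to 2260 CPM in mutant libraries, without overlap, and its part in the differences below was not tested. In sorted bulk samples, fewer cells of a type and less RNA per cell cannot be told apart. Of these 7, Barhl2 and Nhlh1 were lower in each mutant library, and Nhlh1 passed. The other marker sums overlapped between groups: at most 390 CPM for 5 astrocyte genes, 90.5 for 4 inhibitory neuron genes, 17.9 for 5 microglial genes and 17.4 each for 4 endothelial and 4 choroid plexus genes, with 64.8 to 84.5 CPM for 6 oligodendrocyte genes in mutant libraries. Csf1r, at 9.26 to 15.3 CPM, made up most of the microglial sum. Of the 5 microglial genes, C1qa (0.101 to 0.352 CPM in mutant, 0.863 to 3.83 CPM in wild type libraries) and Aif1 (0.0254 to 0.137 against 0.242 to 0.621 CPM) were lower without overlap, and C1qa passed (log2 fold change -3.45, SE 0.500, edgeR adjusted p = 0.0115). The oligodendrocyte lineage gene Sox10 was lower and the inhibitory neuron gene Slc6a5 higher without overlap. The part of these markers in the differences of the protein 4.1 genes was not tested. The 10 erythroid markers, of interest because Epb41 is a red cell gene, summed to at most 12 CPM, with Hba-a1 and Hba-a2, near-identical copies and therefore uncertain, at 0 in every library and Hbb-bs at most 1.93 CPM. Alas2, at 3.52 to 7.97 CPM, made up most of the erythroid sum.

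Levels of different genes were compared per length, as TMM-scaled CPM, a gene's share of the scaled library total, divided by the table's gene length in kb. In wild type cells Epb41 was the highest of the family at 26.9 ± 1.96 CPM per kb (SD, n = 4), above 90.2% of tested genes. Epb41l3, the 4.1B gene that anchors axonal adhesion complexes, followed at 17.1 ± 1.33 and Epb41l4a at 12.8 ± 1.42 CPM per kb. These 3 did not overlap in their ranges over 4 libraries. Epb41l2 stood at 8.97 ± 2.88 CPM per kb, and its range of 7.09 to 13.2 overlapped that of Epb41l4a. Epb41l1, the neuronal 4.1N that binds AMPA receptors, was below both at 5.61 ± 1.08 CPM per kb. Epb41l5 at 3.47 ± 0.535 and Epb41l4b at 3.11 ± 0.741 CPM per kb were the lowest, with overlapping ranges, and lay near the middle of all tested genes, above 47.4% and 45% of them. The 4 genes with the spectrin-actin plan took the first, second, 4th and 5th places, and Epb41l5 and Epb41l4b, alike in sequence, the lowest ones.

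In mutant cells, with the same lengths, Epb41l4b no longer stood at the low end. Epb41 at 27.5 ± 0.870 CPM per kb and Epb41l3 at 15.1 ± 1.67 were again first and second, without overlap. Epb41l2 at 7.66 ± 1.09, Epb41l4a at 7.30 ± 0.839, Epb41l4b at 7.12 ± 1.02 and Epb41l1 at 6.55 ± 1.44 CPM per kb overlapped each with the next, so no order among these 4 could be given. Epb41l5 was last at 2.75 ± 0.763 CPM per kb, below all 4. Of the summed family level per kb, Epb41l4b made up 3.98% ± 0.813 in wild type and 9.66% ± 1.63 in mutant libraries, and Epb41l4a 16.4% ± 1.55 and 9.87% ± 1.02 (SD, n = 4). The sum itself was 78.0 ± 5.83 CPM per kb for wild type against 74.0 ± 3.20 in mutant libraries (SD, n = 4), with overlapping ranges of 71.5 to 83.8 and 69.7 to 77.0.

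The order rests on the length used for each gene. The table's length equals the union of GENCODE M21 exons for Epb41l1 and Epb41l4b but is 34.5% to 55.3% of it for the other 5, and with the union lengths Epb41l1 moved from place 5 to place 3 (5.604 CPM per kb) and Epb41l4a from place 3 to place 4 (5.43). In wild type cells Epb41 and Epb41l3 kept the first and second place by mean with every length and scaling tried. With union lengths, however, the ranges of Epb41l3 (5.51 to 6.5), Epb41l1 (4.59 to 7.05) and Epb41l4a (4.56 to 5.85) overlapped, so no order among them could be given. Without length, Epb41l3 (65.6 to 77.5 CPM) also overlapped Epb41l1 (52.9 to 81.3 CPM). In mutant cells Epb41 was first and Epb41l5 last with each length, but with the union lengths Epb41l4b was second at 7.12 CPM per kb, followed by Epb41l1 at 6.55, and Epb41l3 was in place 4 at 5.19. These are places of the means. The range of Epb41l1 (5.47 to 8.52) overlapped those of Epb41l4b (6.1 to 8.41) and Epb41l3 (4.68 to 5.85). With the union lengths the family sum was 40.1 ± 3.16 CPM per kb for wild type against 41.5 ± 1.59 in mutant libraries (SD, n = 4), so the sign of its difference turned and the ranges overlapped again. With the length of the longest coding transcript the family sum was 86.7 ± 6.59 against 84.1 ± 3.45 CPM per kb, and the sign did not turn.

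**Figure D2:**
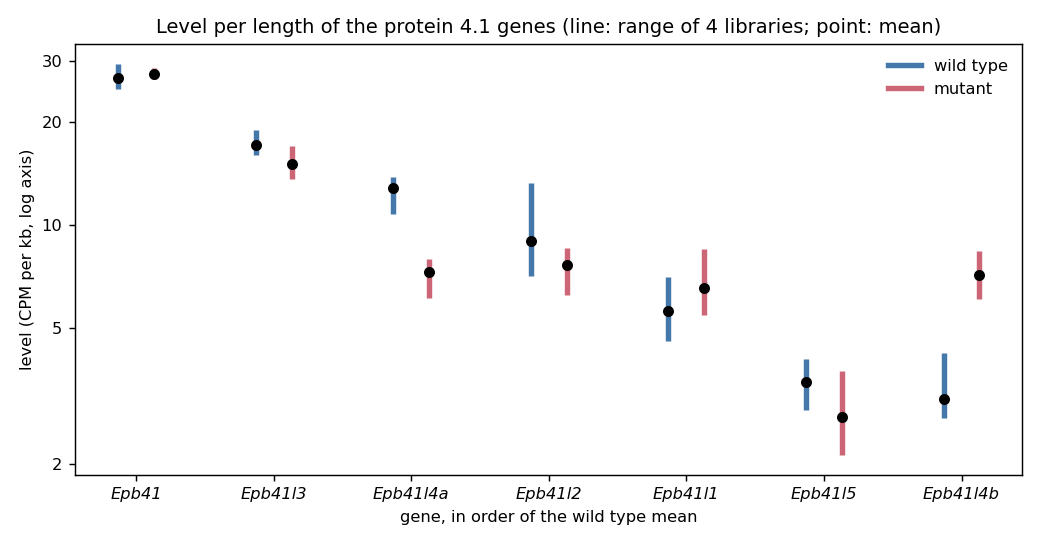
Level per length of each gene on a log axis (CPM per kb), in wild type (blue) and mutant (red) libraries; lines span the 4 libraries of a group and points are means. Epb41 is highest in both groups, and Epb41l4b, last in wild type at 3.11, stands at 7.12 in mutant libraries beside Epb41l2, Epb41l4a and Epb41l1.

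Epb41l4b (ENSMUSG00000028434, chromosome 4, 56991972 to 57143437, minus strand, mm10), the Lulu2 gene, had a level of 24.3, 24.1, 37.4 and 24.3 CPM across wild type 5 to 8, with 58.2, 54.0, 65.5 and 74.5 CPM across mutant 1 to 4. Each mutant library was above each wild type library, and wild type 7 stood apart from the other wild type libraries. The mean was 27.5 ± 6.56 CPM for wild type against 63.1 ± 9.002 CPM in mutant libraries (SD, n = 4), a ratio of 2.29 and a fitted log2 fold change of 1.197 (SE 0.165). By absolute fold change 351 of the tested genes lay further from 0.

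Epb41l4a (ENSMUSG00000024376, chromosome 18, 33796327 to 34006966, minus strand) moved the other way. Wild type cells gave 49.8, 41.4, 52.8 and 53.0 CPM in libraries 5 to 8, with 30.6, 30.3, 28.03 and 23.6 CPM across mutant 1 to 4. All 4 mutant libraries were below the lowest wild type library, wild type 6. The mean was 49.2 ± 5.45 CPM for wild type against 28.1 ± 3.23 CPM in mutant libraries (SD, n = 4), a ratio of 0.572 and a fitted log2 change of -0.81 (SE 0.126), with 1228 tested genes further from 0.

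Epb41l4a and Epb41l4b were also set against each other within each library. The ratio of Epb41l4b to Epb41l4a per kb was 0.212, 0.254, 0.308 and 0.199 across wild type 5 to 8, with 0.827, 0.775, 1.02 and 1.37 across mutant 1 to 4. In wild type cells Epb41l4a was thus the higher of the pair in every library, and in mutant cells Epb41l4b was the higher in mutant 3 and mutant 4. The size of this ratio rests on the table's lengths, which are 42.5% of the exon union for Epb41l4a and all of it for Epb41l4b. With union lengths the mean ratio was 0.573 ± 0.115 in wild type and 2.35 ± 0.638 in mutant libraries (SD, n = 4), and Epb41l4b was the higher in all 4 mutant libraries, at least 1.83 times. The groups were apart in range with each length. The summed level of the pair was 15.9 ± 1.86 CPM per kb for wild type against 14.4 ± 0.315 CPM per kb in mutant libraries (SD, n = 4). With union lengths it was 8.53 ± 1.14 against 10.2 ± 0.682 CPM per kb, so the direction turned. With the length of the longest coding transcript it was 17.9 ± 2.14 against 17.2 ± 0.529 CPM per kb, and the direction did not turn. The ranges overlapped with each of these lengths.

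With edgeR's quasi-likelihood test over all genes (Benjamini-Hochberg adjusted p below 0.05), 2 of the 7 genes were past the threshold, 1 higher and 1 lower, where 0.359% of tested genes were past it, 0.144% higher and 0.215% lower. For these 2 genes the groups were also apart in range, a property of 6.17% of tested genes. Since the family was chosen by these values, the counts show only what the choice used.

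**Figure D3:**
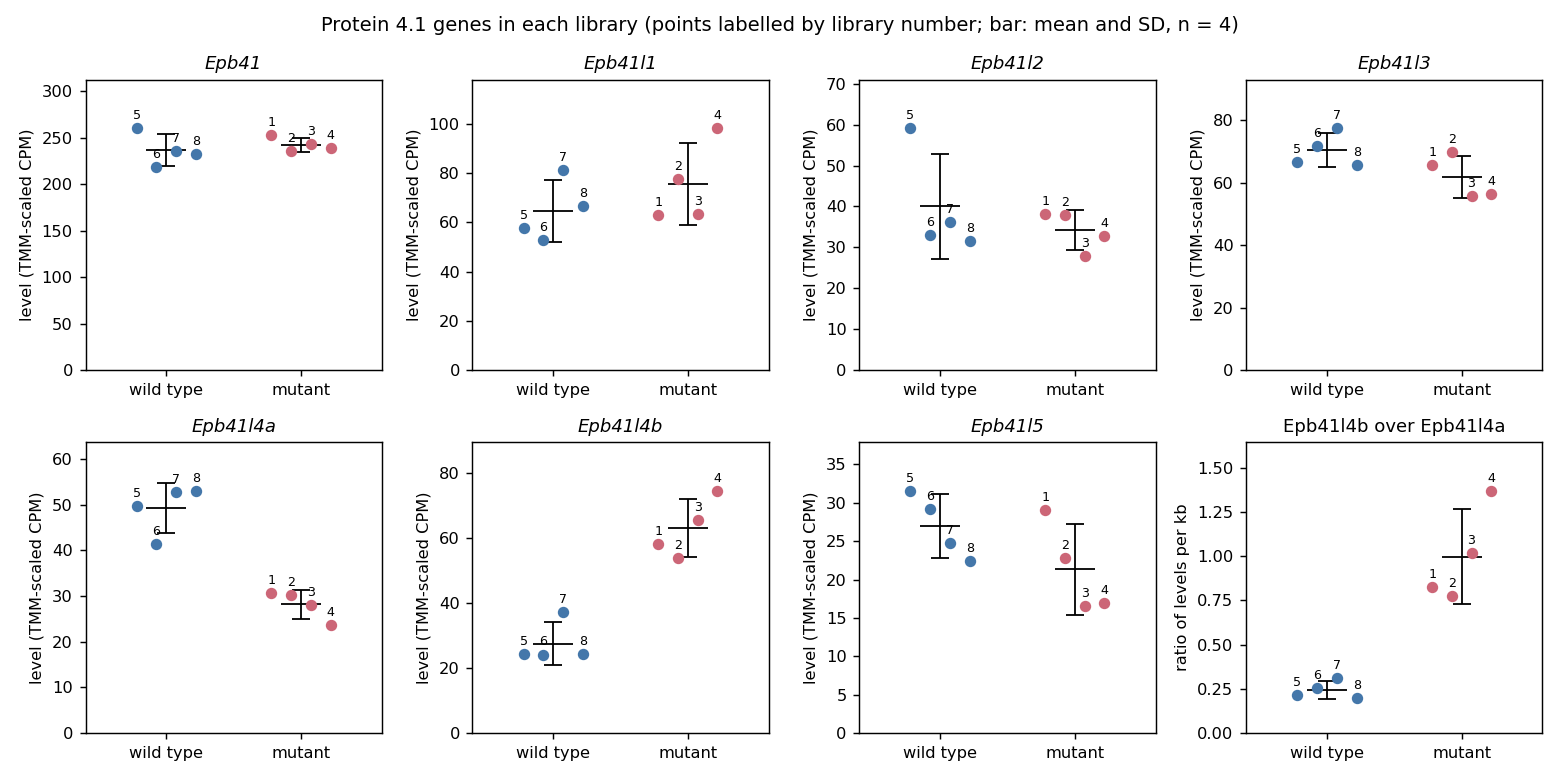
Level of each protein 4.1 gene (TMM-scaled CPM, linear axes from 0) in wild type (blue) and mutant (red) libraries, with the library number beside each point and the mean and SD of 4 libraries as bars; the last panel gives the ratio of Epb41l4b to Epb41l4a per kb. Groups separate for Epb41l4a, Epb41l4b and their ratio, and overlap for the other 5 genes.

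The remaining 5 genes had overlapping groups and fitted log2 fold changes between -0.34 and 0.22. Epb41 (ENSMUSG00000028906, chromosome 4, 131923413 to 132075321), the highest of the family, was also the steadiest. It was at 260, 219, 236 and 232 CPM across wild type 5 to 8, with 253, 235, 243 and 239 CPM across mutant 1 to 4, all mutant values inside the wild type range. Its log2 fold change was 0.03 (SE 0.0943), and the sign turned in 2 of 17 settings, down to -0.02.

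Epb41l3 (ENSMUSG00000024044, chromosome 17, 69075683 to 69289989), whose product 4.1B gathers contactin-associated proteins at the paranodes of myelinated axons, was at 66.6, 71.7, 77.5 and 65.7 CPM across wild type 5 to 8, with 65.5, 69.7, 55.8 and 56.5 CPM across mutant 1 to 4. In 3 of 4 mutant libraries it was below the wild type range, with mutant 2 inside it. Mutant 1 was only just below, at 65.55 CPM against 65.65 CPM in wild type 8. The log2 fold change of Epb41l3 was -0.19 (SE 0.111). Epb41l5 (ENSMUSG00000026383, chromosome 1, 119545037 to 119649000) was at 31.6, 29.2, 24.7 and 22.4 CPM for wild type against 29.1, 22.8, 16.5 and 16.9 CPM in mutant libraries, in the same order. Mutant 3 and mutant 4 were below the wild type range, and mutant 1 and mutant 2 inside it. The log2 fold change of Epb41l5 was -0.34 (SE 0.189), from -0.52 to -0.23 over the alternatives.

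Epb41l1 (ENSMUSG00000027624, chromosome 2, 156420909 to 156543214) was at 57.8, 52.9, 81.3 and 66.5 CPM across wild type 5 to 8, with 63.0, 77.5, 63.3 and 98.3 CPM across mutant 1 to 4. Only mutant 4 was above the wild type range, and the log2 fold change of 0.22 (SE 0.170) ran from 0.08 to 0.36 with single libraries left out. Epb41l2 (ENSMUSG00000019978, chromosome 10, 25359798 to 25523519), the widely expressed 4.1G gene, was at 59.1, 33.1, 36.3 and 31.6 CPM across wild type 5 to 8, with 38.2, 37.8, 27.9 and 32.8 CPM across mutant 1 to 4. Wild type 5 was far above the other 7 libraries, and the log2 fold change of -0.23 (SE 0.195) became 0.01 without it.

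The profile of each gene over the 8 libraries was compared with 11967 named genes by the root mean square difference of log2 CPM after each gene was centred at its own mean. Among the closest to Epb41l4a were Sphkap (0.144) and the phospholipase C gene Plcd1 (0.151), where the median distance was 0.480. Both had a lower mean in mutant libraries, Sphkap at 174 against 282 CPM in wild type. Closest to Epb41l4b were the cytokine receptor subunit Csf2ra (0.168), Glt1d1 (0.193) and Irak1bp1 (0.208), with a median distance of 0.668, and Csf2ra was at 11.8 CPM in mutant and 5.53 CPM in wild type libraries. Since both members separate the groups, genes alike to them do so by choice, and no test is given. The closest gene was Pogz for Epb41 (0.0386), the imprinted noncoding RNA H19 for Epb41l2 (0.114), Mpped2 for Epb41l3 (0.0515) and the polarity scaffold Pard3 for Epb41l5 (0.0830).

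The genes beside the members on the chromosome were not part of the rule that chose the family and were tested in the same fit. They were taken up after the data were seen. On chromosome 4 the nearest tested protein-coding genes to Epb41l4b were Frrs1l, an AMPA receptor biogenesis factor 1.58 kb away, and Ptpn3, a tyrosine phosphatase with a FERM domain of its own 47.4 kb away. Frrs1l was at 68.3 CPM for wild type against 88.8 CPM in mutant libraries (log2 fold change 0.38, SE 0.194, edgeR adjusted p = 0.451), and Ptpn3 at 6.19 and 10.9 CPM (0.82, SE 0.228, adjusted p = 0.180). Neither passed in this fit, but Ptpn3 passed with DESeq2 (0.82, adjusted p = 0.0274) and with edgeR without mutant 1 (0.97, adjusted p = 0.0328). The values of Frrs1l in those settings are not given here. The neighbours of Epb41l4a were Nrep, at 1924 CPM for wild type against 2248 CPM for mutant libraries, and the Wnt pathway gene Apc, at 875 against 821 CPM, with log2 fold changes of 0.22 (SE 0.202) and -0.09 (SE 0.151) and edgeR adjusted p of 0.664 and 0.827. The noncoding gene Epb41l4aos lies 340 bases beyond the end of Epb41l4a on the opposite strand and shares no annotated exon with it. It was at 6.27, 8.02, 5.21 and 6.68 CPM across wild type 5 to 8, with 6.55, 6.81, 11.0 and 7.29 CPM across mutant 1 to 4, with log2 fold change 0.28 (SE 0.209, edgeR adjusted p = 0.601), and its groups overlapped. None of the 14 flanking genes passed with edgeR and all 8 libraries. Epb41 alone shares exon bases with other genes, 91 with Gm13063, which was at 0.465 CPM in wild type cells, and 142 with Gm10300, which had too few counts to be tested, and without strand such reads cannot be told apart.

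Genes that work with protein 4.1 or share its FERM domain were read from 4 lists of 117 genes, of which 110 were tested. The largest list, 42 of the tested genes, holds genes that share the domain and were not listed as partners. By edgeR none of the 110 passed over all genes. At an unadjusted p below 0.05 there were 20, 11 higher and 9 lower, or 18.2% where 12.5% of all tested genes were below it. DESeq2 called 8 of the 110, where it called 2.55% of all tested genes. With quality weights limma-voom called 4 of the 110, where it called 1.2% of all tested genes. Without them it called 0, where it called 0.354%. Without mutant 1, edgeR called 12 of the 110. Of the omissions of 1 library, that one gave the most calls over all genes, 544 against 70 with all 8 libraries. The share of all tested genes in that fit was not computed, so the 12 are not set against it. The groups did not overlap for 7 of the 110, where 6.17% of tested genes do not.

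Of 24 tested genes of the spectrin lattice (spectrins, ankyrins, adducins, tropomodulins, tropomyosins and actins), 11 had a positive fold change and the median log2 fold change was -0.04, against -0.01 for all tested genes. None passed by edgeR, and 3 higher and 2 lower had an unadjusted p below 0.05. Tmod4, a tropomodulin that caps actin filaments, was at 2.26 ± 0.418 CPM for wild type against 0.697 ± 0.314 CPM in mutant libraries (log2 fold change -1.68, SE 0.336, edgeR adjusted p = 0.0653). Ank1, the ankyrin of the red cell lattice, was at 6.63 ± 1.54 and 13.9 ± 5.17 CPM (1.07, SE 0.262, adjusted p = 0.124; SD, n = 4). Neither overlapped between groups, and both passed with DESeq2, with limma-voom with quality weights and without mutant 1. The red cell gene Epb42 had at most 11 counts in any library and was not tested.

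Of 24 tested membrane and signalling partners, among them glycophorin C, the Cadm and contactin-associated adhesion proteins, neurexins, AMPA receptor subunits and calmodulins, 13 had a positive fold change and the median was 0.08. None passed by edgeR or the 3 other tools, and 2 higher and 3 lower had an unadjusted p below 0.05. Those with the smallest p were the calcium release channel Itpr1, at 10.8 ± 2.82 CPM for wild type against 6.55 ± 2.14 CPM in mutant libraries (log2 fold change -0.72, SE 0.245, edgeR adjusted p = 0.275), and the presynaptic adhesion protein Nrxn3, at 50.1 ± 14.9 and 87.9 ± 33.9 CPM (0.81, SE 0.313, adjusted p = 0.340). Both had overlapping groups, and both passed without mutant 1 (adjusted p 0.0357 and 0.0469).

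Of 20 tested genes in the list of Crumbs and Par polarity partners, 9 had a positive fold change and the median was -0.04. Epb41l5 is known as a partner of the Crumbs complex, and the list also holds Par, Scrib, Dlg and Llgl genes. None passed by edgeR, and 2 higher and 2 lower had an unadjusted p below 0.05. Patj, the multi-PDZ scaffold of the Crumbs complex, was at 128 ± 24.6 CPM for wild type against 64.8 ± 15.4 CPM in mutant libraries (SD, n = 4), with log2 fold change -0.98 (SE 0.187, edgeR adjusted p = 0.0565). Its groups did not overlap, and it passed with upper quartile scaling (adjusted p = 0.0491), library size only (0.0427), no low-count filter (0.0160), DESeq2 (0.000368), limma-voom with quality weights (0.0165), without mutant 1 (0.0373) and without wild type 6 (0.0200). Llgl2, the second by p, stood at 0.562 ± 0.157 and 0.240 ± 0.0393 CPM (-1.19, SE 0.402, edgeR adjusted p = 0.274). Its groups did not overlap either, but it had only 5 to 28 counts per library, and DESeq2 gave it no adjusted p.

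Of 42 tested genes with a FERM domain outside the family, 13 had a positive fold change and the median was -0.07. None passed by edgeR, and 4 higher and 2 lower had an unadjusted p below 0.05. Frmd5 was at 37.4 ± 7.82 CPM for wild type against 63.2 ± 7.53 CPM in mutant libraries (SD, n = 4) without overlap, with log2 fold change 0.76 (SE 0.152, edgeR adjusted p = 0.0657). It passed with DESeq2 (0.00139), limma-voom with quality weights (0.0256), no low-count filter (0.00471) and without mutant 1 (0.0201) or wild type 7 (0.0301). Ptpn3, the neighbour of Epb41l4b, was the second by p.

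**Figure D4:**
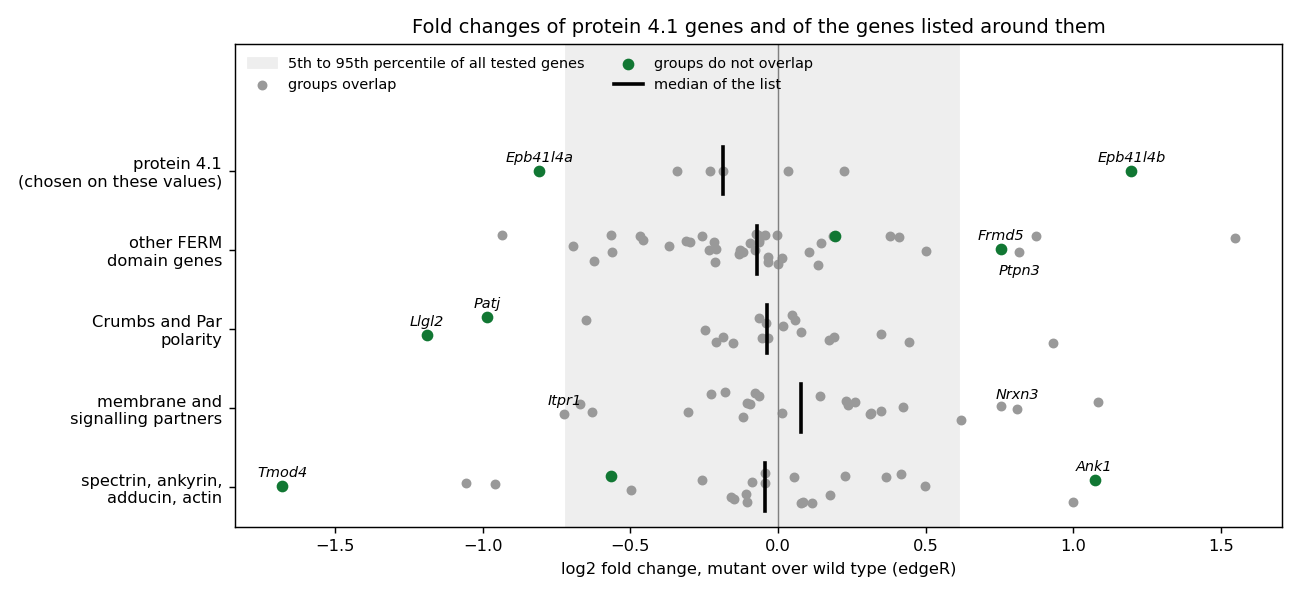
Fitted log2 fold change, mutant over wild type, of the protein 4.1 genes and of 110 tested genes in 4 lists, 1 point per gene; green points have groups without overlap, black bars are list medians and the grey band holds the 5th to 95th percentile of all tested genes (-0.72 to 0.61). Epb41l4b and Epb41l4a, chosen on these values, lie outside the band on opposite sides. The medians of the 4 lists lie between -0.07 and 0.08, and the bar of the protein 4.1 genes is at -0.19.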

How the data were processed

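Sorted cells of the cochlear nucleus were profiled by RNA sequencing in 4 wild type and 4 mutant samples. Per the file headers, the authors deposited raw read counts per Ensembl gene and, in a column headed width, another number per gene. That number was read here as the gene's length in bases, and the gene model behind it is not stated. Base calls came from bcl2fastq 1.8.4 and the build was mm10, per the submitters' processing notes. For the aligner, counting program, annotation release and strand setting, the entry is: not given in the sources used here. Of the 39017 genes, 37607 were matched to a symbol. Column headings give the group and a running number only.

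Counts were fitted in R 4.3.3 with edgeR 4.0.16 (filterByExpr, TMM, robust quasi-likelihood F test, no covariate, all 8 libraries, Benjamini-Hochberg over all tested genes, threshold 0.05). An SE is the absolute log2 fold change over the square root of F. DESeq2 1.42.0, limma 3.58.1, other scalings and filters, and omission of libraries were alternatives. edgeR, DESeq2 and limma-voom with and without quality weights were each run on simulated counts. Coding sequences (longest complete coding transcript per gene) were aligned with MAFFT 7.526.

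The members and the lists were chosen with earlier results of these data known. Named genes are all members, the 2 list genes of smallest p where none of a list passed, the closest profiles (3 for Epb41l4a and Epb41l4b, 1 for each other member, average log2 CPM of at least 1), and Hoxa2 and Hoxb2. Provisional gene names were left out of the profiles. Of the closest profiles, 1 for Epb41l4a and that for Epb41l1 are not reported here. Flanking genes, overlapping genes and Epb41l4aos fall outside that rule and were chosen after the data were seen.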

Additional observations from a re-analysis of the deposited data

Results flagged for a closer look

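In 2 of 14 groups of 4 libraries, 1 library lay far from the other 3 by Dixon's ratio of gap to range at the 95% level, which chance passes in about 1 of 20 groups. Wild type 7 had 37.4 CPM of Epb41l4b, where the other wild type libraries had 24.1 to 24.3 (ratio 0.989). It was still below the lowest mutant library, at 54.0 CPM, and without it the log2 fold change of Epb41l4b was 1.38. Wild type 5 had 59.1 CPM of Epb41l2, where the other wild type libraries had 31.6 to 36.3 (ratio 0.830, only just past the cutoff). Without it the log2 fold change of Epb41l2 went from -0.23 to 0.01.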

How the results depend on the processing

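Over the 17 alternatives the log2 fold change of Epb41l4b ran from 1.08 to 1.38 and that of Epb41l4a from -0.95 to -0.73; both genes were chosen on this comparison, so their range is no sign of stability. Without mutant 2, 3 or 4 or wild type 5, 7 or 8, Epb41l4a was not past the threshold. No paired analysis was possible because the columns carry a running number and not the replicate number of the titles. Those replicate numbers are not known to mark pairs, and each sample came from its own mother. Leaving out single libraries gave 26 to 544 genes past the threshold over all genes (70 with all 8), 1 to 2 of the protein 4.1 genes, 0 to 3 spectrin lattice genes, 0 to 2 partner genes, 0 to 3 polarity genes and 0 to 4 other FERM genes, where all 8 libraries gave 0 in each list. Over all genes the lowest count was without mutant 4, the highest without mutant 1, and 33, 36, 36 and 32 genes passed without mutant 2, mutant 3, wild type 5 and wild type 8. With no low-count filter 214 genes passed, of which 3 were in the spectrin lattice, 1 in the polarity and 1 in the FERM list. DESeq2 gave 497, of which 4, 2 and 2 in those lists, and limma-voom with quality weights 233, of which 2, 1 and 1. Upper quartile scaling and library size only each gave 1 polarity gene. With 3 libraries left out at once (mutant 1, wild type 5, wild type 6), chosen after seeing the data, 171 genes passed and none of the 110 list genes. The cause of these shifts was not tested. Counting error is small beside the spread between libraries for the 7 genes, so that the 4 libraries per group limit the precision. Other length settings, also chosen after seeing the data, were tried for the mutant minus wild type difference of 2 sums. The difference turned with union lengths and without length, but not with the length of the longest coding transcript. For Epb41l4a plus Epb41l4b it was -1.46 CPM per kb with the table's lengths, 1.69 with union lengths and 14.4 CPM without length, and for the family -3.98, 1.4 and 11. With the longest coding transcript it was -0.648 CPM per kb for the pair and -2.54 for the family.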
